A study of Mus musculus with 4 samples.

Results

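The genes described here encode the transforming growth factor-β (TGF-β) and bone morphogenetic protein (BMP) signalling machinery, as measured in mouse embryonic fibroblasts (MEFs). The set held 44 genes out of 27484 gene names on the array. Members were taken by gene symbol from the array annotation, and each gene was read from its brightest probe. By general knowledge 19 genes were placed in the TGF-β and activin arm, 17 in the BMP arm, and 8 were shared by both or lay outside both. The cells came from C57BL/6J mice, and their genotype labels were Lats2-/- (KO) or Lats2+/+ (WT). Lats2 belongs to the Hippo kinase cascade, by which crowding holds the coactivators YAP and TAZ in check. All cells were grown in DMEM with inactivated serum. Low density cells were sampled after 48 h, before confluence, and high density cells after 3 to 5 days, so density and time in culture changed together. Each genotype had 2 two-colour arrays of low against high density with the dyes exchanged, which gave 8 channels in all.

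A dye swap repeats the measurement and not the culture. Each genotype and density therefore counted as 1 replicate, no p-value is given, and the number of embryos behind each line was not given in the sources used here. Values are log2 ratios of normalised signal, as the mean of both arrays or dyes unless said otherwise. The separate values of the arrays or dyes are given for part of the genes only. A gene was called higher or lower when the mean log2 value was at least 1 in size, which is a 2-fold change, and its sign agreed between the arrays (for density) or the dyes (for genotype). The root mean square distance of an array (or dye) from the mean of its pair was taken over all genes. It was 0.10 for WT density, 0.14 for KO density, 0.11 for genotype at low density and 0.14 at high density. In bulk RNA, fewer cells of a type and less RNA per cell cannot be told apart.

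The Lats2 probes did not settle the labels. Of 4 probes, 3 were higher on the arrays labelled KO, by 1.19 to 1.39 at low and 0.91 to 1.49 at high density on the log2 scale. The other was lower there (-0.63 and -1.26). The study names a western blot of Lats2 protein as its check of the knockout, which runs with the labels and was not analysed here. Every genotype direction below rests on the labels. The WT arrays were on 1 slide and the KO arrays on 2 others, so slide and genotype cannot be told apart. All 8 fibroblast markers were well above background in all channels. Of 6 endothelial markers, 5 (Pecam1, Cdh5, Tek, Tie1 and Emcn) were above background in no channel. Of 6 macrophage markers, 3 (Ptprc, Adgre1 and Itgam) were above it in none and 2 (Cd68 and Cd14) in all.

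TGF-β ligands are secreted in a latent complex with a latent TGF-β binding protein, which tethers them to the extracellular matrix until they are released. Active TGF-β and activin ligands bind type II and type I receptor kinases that phosphorylate SMAD2 and SMAD3, whereas BMP ligands act through SMAD1 and SMAD5. Both sets of SMADs join SMAD4 to control transcription, secreted antagonists trap ligands outside the cell, and the inhibitory SMADs, Ski and Skil act inside it. In fibroblasts TGF-β is known for driving matrix production, and the Id genes are classical targets of BMP signalling.

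The promoters of a ligand gene, a latent binding protein gene and 3 target genes are shown. They were picked, after the values were seen, from those of members whose density effects lay more than 2-fold apart between the genotypes. Each is the 250 bases before the gene's start in the RefSeq table for build GRCm38.p6, written 5′ to 3′ on the gene's strand. Capitals mark the SMAD box CAGAC, which appears as GTCTG where it lies on the opposite strand, the GC-rich SMAD element GGCGCC, which reads the same on both strands, and the TEAD motif CATTCC (TEAD factors carry YAP and TAZ to DNA). Both strands were searched, and in these sequences no match overlapped that of another motif. They lie at chr1:186705990-186706239 (Tgfb2, minus strand), chr12:84876492-84876741 (Ltbp2, minus strand), chr13:56609336-56609585 (Tgfbi, plus strand), chr12:25096093-25096342 (Id2, minus strand) and chr13:48260866-48261115 (Id4, plus strand).
Tgfb2: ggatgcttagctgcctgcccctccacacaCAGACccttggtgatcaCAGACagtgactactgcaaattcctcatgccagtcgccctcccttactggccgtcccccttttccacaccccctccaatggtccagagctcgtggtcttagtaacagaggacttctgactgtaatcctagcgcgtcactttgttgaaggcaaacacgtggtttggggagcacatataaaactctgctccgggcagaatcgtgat
Ltbp2: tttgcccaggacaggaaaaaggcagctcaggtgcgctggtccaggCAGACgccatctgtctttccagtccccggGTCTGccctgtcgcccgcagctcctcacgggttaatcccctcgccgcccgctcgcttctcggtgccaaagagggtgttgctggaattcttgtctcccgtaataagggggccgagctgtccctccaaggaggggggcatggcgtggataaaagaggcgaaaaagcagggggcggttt
Tgfbi: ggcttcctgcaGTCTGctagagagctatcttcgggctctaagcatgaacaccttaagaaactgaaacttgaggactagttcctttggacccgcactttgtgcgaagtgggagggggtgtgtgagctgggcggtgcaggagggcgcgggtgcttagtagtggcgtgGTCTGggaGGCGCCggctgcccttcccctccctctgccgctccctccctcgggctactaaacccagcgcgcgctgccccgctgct
Id2: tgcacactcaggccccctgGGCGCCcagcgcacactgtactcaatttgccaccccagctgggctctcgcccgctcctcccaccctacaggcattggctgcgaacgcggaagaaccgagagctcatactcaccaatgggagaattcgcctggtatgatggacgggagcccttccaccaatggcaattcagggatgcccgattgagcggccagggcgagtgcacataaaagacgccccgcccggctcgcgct
Id4: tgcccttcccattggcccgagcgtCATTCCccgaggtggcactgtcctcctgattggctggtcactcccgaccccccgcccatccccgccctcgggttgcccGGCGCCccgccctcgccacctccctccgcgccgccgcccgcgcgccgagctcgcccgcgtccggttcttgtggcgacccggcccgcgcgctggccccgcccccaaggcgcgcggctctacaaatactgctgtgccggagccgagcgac

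The Tgfb2 window held 2 SMAD boxes, at 221 and 204 bases before the start, and the Ltbp2 window also held 2, at 205 and 176 bases. The Tgfbi window held 2 SMAD boxes, at 239 and 85 bases, and a GC-rich element at 77 bases. The Id2 window held a GC-rich element at 231 bases, and the Id4 window a GC-rich element at 148 bases and a TEAD motif at 226 bases. Other members with such a gap between density effects are not shown. Among them, the windows of Fstl1, Inhba and Inhbb held none of these motifs. The Ltbp3 window held a SMAD box, and Ltbp4 had windows with a GC-rich element. Promoters were found for 30 members, 5 of them with several, which made 37 windows. A SMAD box occurred in 18 of these windows (48.6%) against 42.2% of all 32851 windows of the same length, a GC-rich element in 11 (29.7%) against 9.59%, and a TEAD motif in 4 (10.8%) against 12.6%. These are matches of letters and not binding sites. A promoter was not found in the table for Tgfb3, Tgfbr3, Fst, Skil, Bmp2, Bmp7, Bmp1, Chrdl1, Nog, Id1, Smad2, Smad4, Smad7 and Bambi.

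Across the set, 36 members were well above background in all 8 channels. Bmp7 was above background in none, and Bmp2 and Gdf10 in 1, so that these 3 genes were measured in no contrast. With density, 5 of 39 measured members were higher and 9 lower in cells labelled WT, against 9.43% of all measured genes higher and 6.12% lower. In cells labelled KO the order turned, with 11 of 41 higher and 3 lower, against 7.18% and 3.90% of all genes. Among the 39 members measured in both, 4 were higher in both genotypes, 3 were lower in both, and 2 (Tgfb3 and Ltbp2) were called in opposite directions. The density effect in KO minus that in WT was at least 2-fold higher for 11 of 39 members and lower for 3, against 4.59% and 5.00% of all genes. These counts describe a list that was chosen with earlier results of the same arrays known.

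**Figure D1:**
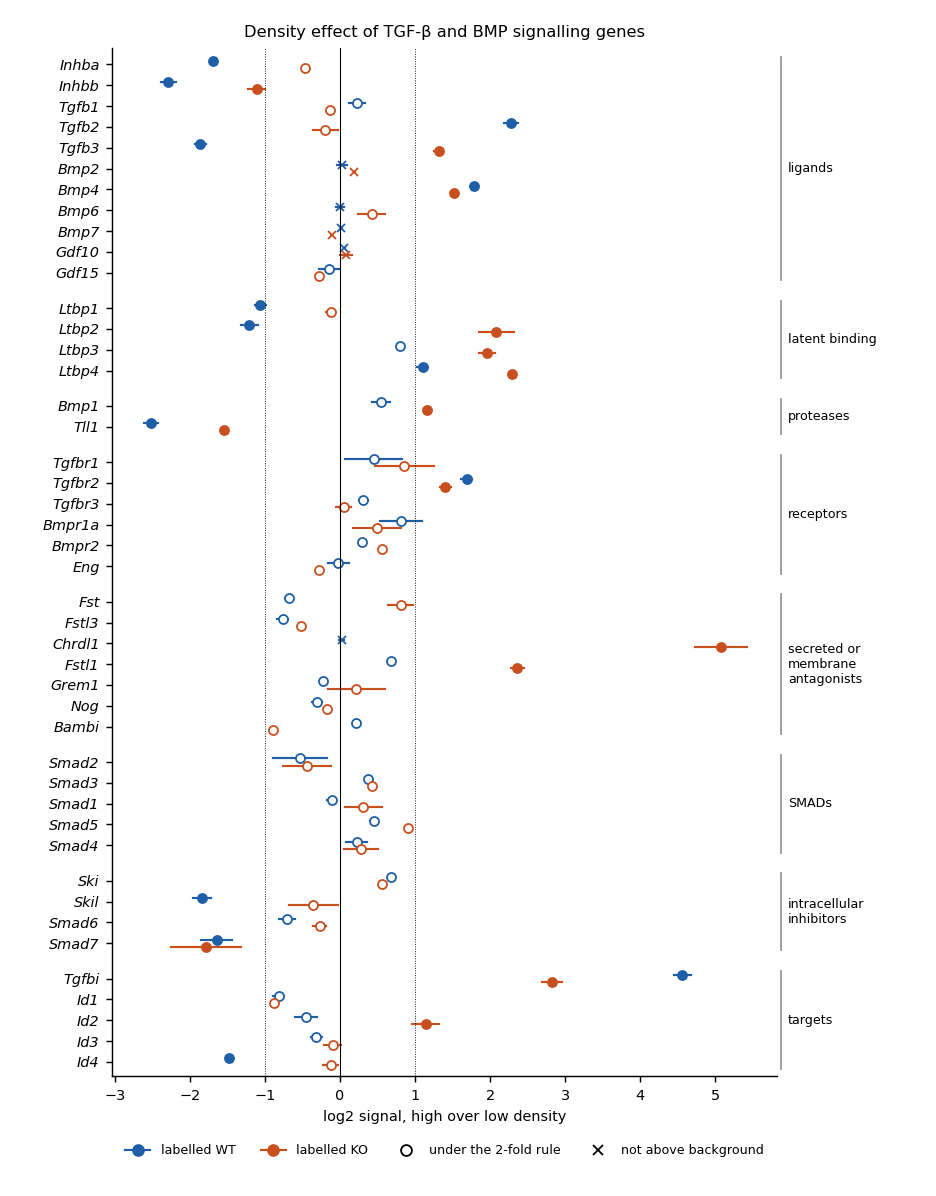
Density effect of all 44 members, ordered by role, as log2 signal at high over low density in cells labelled WT (blue) and KO (orange). Points are means of 2 arrays and bars join the 2 arrays, filled points pass the 2-fold rule (dotted lines) and crosses were not above background. Tgfb3 and Ltbp2 lie on opposite sides in the 2 genotypes, Tgfb2 passes the rule in WT alone, and Chrdl1 stands farthest right in KO.

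The 3 TGF-β ligand genes each behaved differently. Tgfb2 was measured with a probe at chr1:188324443-188324502 (build mm8, as are all probe positions here). In cells labelled WT the log2 signal was 9.80 and 9.65 at low density and 11.98 and 12.02 at high density, and in cells labelled KO it was 10.57 and 10.43, then 10.54 and 10.06. It thus rose 4.85-fold with density in WT (log2 2.28, arrays 2.18 and 2.37), while the KO value was -0.20 (-0.03 and -0.36), and the 2 density effects were -2.47 apart. At high density it was lower in KO than in WT by 3.25-fold (-1.70), whereas at low density the log2 difference was 0.77, under the 2-fold rule.

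Tgfb3 moved the other way. Its probe (chr12:86945957-86946016) gave log2 signals of 14.38 and 14.34 at low and 12.44 and 12.55 at high density in WT, and of 13.84 and 14.09, then 15.09 and 15.47 in KO. With density it fell 3.63-fold in WT (-1.86, arrays -1.94 and -1.79) and rose 2.49-fold in KO (1.31, arrays 1.25 and 1.37). The difference between these effects was 3.18 on the log2 scale, with 3.19 and 3.16 in the separate dyes. At low density the genotypes were -0.39 apart, and at high density Tgfb3 was 6.90-fold higher in KO (2.79). Median centring in place of loess lowered the KO rise to 0.70, under the 2-fold rule.

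Tgfb1 showed no density effect past the rule, with 0.22 in WT and -0.13 in KO. Its log2 signal was 7.87 to 8.20 over the WT channels and 6.97 to 7.12 over the KO channels, and the genotypes did not overlap at either density. It was 2.28-fold lower in KO at high density (-1.19) and -0.84 apart at low density. Without scaling between arrays the high density value was -0.96, under the 2-fold rule.

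The activin subunit genes fell with density in WT. Inhba, which encodes the activin A subunit, went from 13.82 and 13.67 to 12.15 and 11.95, a 3.22-fold fall (-1.69), and had a KO value of -0.46. At high density it was 4.04-fold higher in KO (2.01), and no WT channel reached the KO channels at either density. Inhbb, the activin B subunit gene, fell in both genotypes, by 4.88-fold in WT (-2.29) and 2.15-fold in KO (-1.11), and was 2.33-fold lower in KO at low density (-1.22). Its 2 density effects were 1.18 apart. The KO fall of Inhbb was -0.67 with the mean of both probes and -0.99 without KO replicate 2, under the 2-fold rule. With the mean of probes the low density genotype value was -0.81 and the gap 0.80, under the 2-fold rule, and without scaling between arrays the former was -0.93. The dimmer Inhbb probe gave density values of -0.66 and -0.24.

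**Figure D2:**
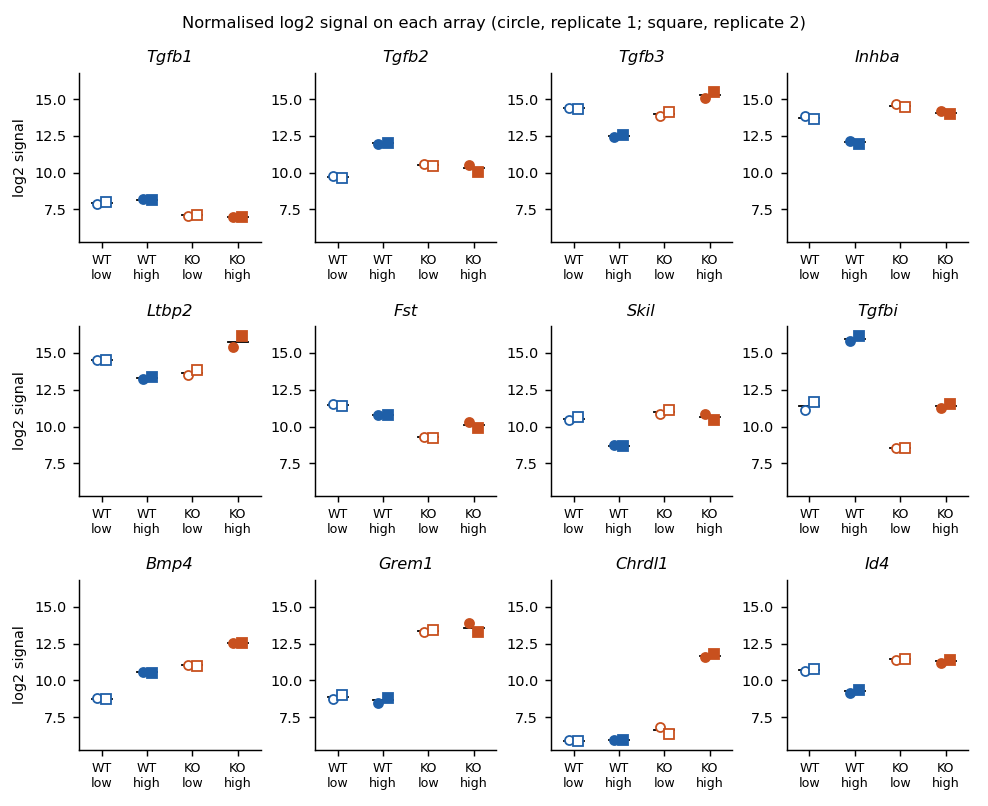
Normalised log2 signal of 12 members in each channel, for cells labelled WT (blue) and KO (orange) at low (open) and high (filled) density, with the mean of each pair as a bar. Tgfb3 and Ltbp2 fall with density in WT and rise in KO, Grem1 lies between 8.50 and 8.98 in WT and between 13.27 and 13.90 in KO, and Chrdl1 rises from 6.37 and 6.86 to 11.59 and 11.78 in KO.

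Of the 4 latent TGF-β binding protein genes, Ltbp2, Ltbp3 and Ltbp4 were higher at high density in KO, whereas in WT Ltbp4 was higher and Ltbp1 and Ltbp2 were lower. Ltbp2, a matrix protein of the family that is known for binding elastic fibres more than latent TGF-β, was read at chr12:85672971-85673030. On the WT arrays it read 14.52 and 14.49 at low and 13.20 and 13.40 at high density, and on the KO arrays 13.52 and 13.81, then 15.37 and 16.12 (log2 signal). It fell 2.31-fold in WT (-1.21) and rose 4.24-fold in KO (2.08, arrays 1.85 and 2.32), and the gap of 3.29 between these effects was the largest among the members measured in both. At high density Ltbp2 was 5.46-fold higher in KO (2.45).

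The density effects of the other binding protein genes lay less far apart between the genotypes. Ltbp3 rose 3.88-fold in KO (1.96) with 0.80 in WT, and Ltbp4 rose 4.87-fold in KO (2.28) and 2.15-fold in WT (arrays 1.03 and 1.18, but 0.84 with median centring, under the 2-fold rule). Their density effects were 1.16 and 1.18 larger in KO, and both gaps came under the 2-fold rule with median centring (0.95 and 0.93). Ltbp1 fell 2.09-fold in WT (-1.06) and had -0.13 in KO. The WT fall of Ltbp1 was close to the limit, at -0.99 without WT replicate 2.

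Bmp1 and Tll1 encode proteases of the tolloid family, which cleave procollagens and the BMP antagonist chordin. Bmp1 rose 2.24-fold in KO (1.16) with 0.55 in WT, and its KO value was 0.75 with median centring. Tll1 fell with density in both genotypes, from 8.76 and 9.14 to 6.15 and 6.71 in WT and from 8.10 and 8.41 to 6.51 and 6.91 in KO. In WT it was not well above background at high density, so that its fall was at least 5.67-fold there (measured log2 value -2.52), and in KO it was 2.92-fold (-1.55).

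Among the receptor genes Tgfbr2 alone passed the rule with density and Eng alone between genotypes. Tgfbr2, the TGF-β type II receptor, rose in both genotypes, from 11.34 and 11.40 to 12.95 and 13.17 in WT and from 11.59 and 11.39 to 12.92 and 12.86 in KO. The rise was 3.22-fold in WT (1.69) and 2.64-fold in KO (arrays 1.33 and 1.47). Between genotypes its values were 0.12 at low and -0.17 at high density (0.09 at high density without scaling between arrays). The mean over its 2 measured probes gave 0.77 in KO, under the 2-fold rule, and the third probe was above background in no channel. The type I receptors Tgfbr1 (0.45 in WT and 0.86 in KO) and Bmpr1a (0.81 and 0.49), the type II receptor Bmpr2 (0.29 and 0.56) and the co-receptor Tgfbr3 (0.31 and 0.05) passed the rule in no contrast. The arrays of Tgfbr1 lay apart, at 0.83 and 0.07 in WT and 1.25 and 0.46 in KO. Those of Bmpr1a also did, with 9.88 and 10.17 at low and 10.97 and 10.70 at high density in WT. In KO it read 10.36 and 10.79, then 11.17 and 10.97. A dimmer Bmpr2 probe went further, at 1.47 and 1.63 in KO against WT at low and high density, where the brightest gave 0.28 and 0.56. Tgfbr1 came near the 2-fold rule at low density, where it was -0.97 in KO against WT.

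Eng, which encodes the co-receptor endoglin, separated the genotypes and not the densities. Over both densities the log2 signal was 9.46 to 9.71 over the WT channels and 6.91 to 7.24 over the KO channels, with no overlap. It was 5.23-fold lower in KO at low density (-2.39 in both dyes) and 6.22-fold lower at high density (-2.64), with density values of -0.02 and -0.27. Eng is also an endothelial gene. The summed signal (linear scale) of the 6 endothelial markers lay between 378.5 and 415.5 in every channel, a sum made mostly of background since 5 of them were above it in none. The other, Kdr, had -0.52 in KO against WT at low density.

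Of the 4 secreted BMP antagonist genes, Grem1 differed widely between genotypes at both densities and Chrdl1 at high density. Grem1, which encodes the BMP antagonist gremlin 1, was read at chr2:113549909-113549968. Its log2 signal was 8.73 and 8.98 at low and 8.50 and 8.78 at high density in WT, against 13.30 and 13.43, then 13.90 and 13.27 in KO. It was 22.8-fold higher in KO at low density (4.51, dyes 4.57 and 4.45) and 30.9-fold higher at high density (4.95, dyes 5.40 and 4.49), with density values of -0.22 in WT and 0.22 in KO. The KO density value had opposite signs on the 2 arrays (0.60 and -0.16), and it was -0.27 with median centring.

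Chrdl1, the gene of the BMP antagonist chordin-like 1, was read at chrX:138544835-138544894 and was well above background only in the KO channels. The WT channels had log2 signals of 5.87 to 5.94, and the KO channels had 6.86 and 6.37 at low and 11.59 and 11.78 at high density. In KO it rose 33.7-fold with density (5.08, arrays 4.73 and 5.42). At high density it was at least 44.3-fold higher in KO than in WT, with a measured log2 difference of 5.76. Over the alternatives this difference ran from 4.13 to 10.01. At low density the bound was 1.36-fold. A dimmer Chrdl1 probe gave 2.29 for KO density and 2.49 for genotype at high density, and another, above background in 1 channel, gave 0.18 and 0.21.

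Fstl1, a secreted glycoprotein that can antagonise BMP4, rose 5.14-fold with density in KO (2.36) and had 0.68 in WT, a gap of 1.68. It was 2.16-fold higher in KO at high density (1.11), a value that was 0.82 without replicate 2 of either genotype. Nog, the gene of the BMP antagonist noggin, passed the rule in no contrast (0.60 and 0.74 between genotypes). Fst encodes follistatin, which binds activins. It went from 11.50 and 11.39 to 10.76 in both channels in WT, and from 9.31 and 9.24 to 10.28 and 9.88 in KO. Neither density effect reached 2-fold (-0.68 and 0.81), but they had opposite signs on all 4 arrays and lay 1.49 apart. Fst was 4.50-fold lower in KO at low density (-2.17), and the high density value was -0.68. Its relative Fstl3 passed the rule in no contrast.

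Bambi encodes a decoy receptor that blocks both arms. It was 2.05-fold higher in KO at low density (1.04, but 0.93 without replicate 2 of either genotype), where the log2 signal was 10.34 and 10.23 in WT and 11.27 and 11.38 in KO. At high density the channels of both genotypes lay between 10.38 and 10.55 (difference -0.07). The density effects were 0.21 in WT and -0.90 in KO, 1.11 apart, and each array was the mean of 10 repeated spots whose log2 ratios had an SD of at most 0.0417.

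Bmp4 was the only BMP ligand gene measured in every contrast. The log2 signal was 8.79 and 8.74 at low and 10.60 and 10.49 at high density in WT, and 11.04 and 11.00, then 12.56 and 12.52 in KO. It rose 3.43-fold in WT (1.78) and 2.87-fold in KO (1.52), and was 4.76-fold higher in KO at low density (2.25) and 3.98-fold higher at high density (1.99). No channel of one genotype overlapped the other at the same density, and the density effects differed by -0.26. Bmp6 was at the floor in WT and was at least 1.63-fold higher in KO at high density (measured log2 value 1.04, and 0.95, under the 2-fold rule, without replicate 1 of either genotype). Gdf15, a distant family member known as a stress-induced cytokine, had a log2 signal of 9.15 to 9.43 in WT and 6.94 to 7.34 in KO. It was 4.09-fold lower in KO at low density (-2.03) and 4.48-fold lower at high density (-2.16).

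The genes of the signal-transducing SMADs did not change past the rule in any contrast. Over Smad1, Smad2, Smad3, Smad4 and Smad5 the density values ran from -0.54 to 0.45 in WT and from -0.44 to 0.90 in KO, and the genotype values from -0.82 to 0.74. The values of the receptor-activated SMADs between genotypes were largest for Smad5 at low density (-0.82) and Smad1 at high density (0.74, dyes 1.02 and 0.46). With median centring the small density value of Smad4 turned from 0.22 to -0.03 in WT and from 0.28 to -0.16 in KO, and that of Smad1 in KO from 0.31 to -0.07.

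Among the intracellular inhibitors, Smad7 and Skil are themselves induced by TGF-β as feedback. Smad7, the inhibitory SMAD of both arms, fell with density in both genotypes, from 9.99 and 10.26 to 8.56 and 8.41 in WT and from 10.54 and 11.15 to 9.22 and 8.90 in KO. The fall was 3.12-fold in WT (-1.64, arrays -1.43 and -1.85) and 3.45-fold in KO (-1.78, arrays -1.32 and -2.25). Skil, the co-repressor SnoN, fell 3.59-fold in WT from 10.45 and 10.63 to 8.73 and 8.66 (-1.84), and had -0.36 in KO (arrays -0.03 and -0.69). At high density Skil was 3.82-fold higher in KO (1.93). A dimmer Skil probe gave density values of -1.01 in WT and -0.52 in KO. Its genotype value at high density was 0.65, under the 2-fold rule. Smad6, the BMP inhibitory SMAD, and the co-repressor Ski passed the rule in no contrast (WT density values -0.70 and 0.67). The dimmest Ski probe gave 1.11 for genotype at low density, where the brightest gave 0.47 and the other 0.68. With density in KO it gave -0.21, against 0.56 and 0.44.

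Tgfbi, the only gene placed among the TGF-β targets (the feedback inhibitors Smad7 and Skil were counted by their role), had the largest density effect of all members in WT. It encodes a TGF-β-induced matrix adhesion protein and was read at chr13:56648721-56648780. Its log2 signal was 11.12 and 11.68 at low and 15.79 and 16.13 at high density in WT, and 8.57 and 8.54, then 11.27 and 11.50 in KO. It rose 23.6-fold with density in WT (4.56, arrays 4.67 and 4.45) and 7.10-fold in KO (2.83, arrays 2.70 and 2.96), a gap of -1.73. It was 7.18-fold lower in KO at low density (-2.84) and 23.9-fold lower at high density (-4.58), so that the KO cells at high density lay within the range of the WT cells at low density. Macrophages express Tgfbi too. The summed signal (linear scale) of the 6 macrophage markers was 777.1 to 984.9 in WT and 502.3 to 665.8 in KO, with Ptprc, Adgre1 and Itgam above background in no channel and Cd68 and Cd14 above it in all 8. Cd14 was lower in KO at both densities (-1.80 and -1.59), while Csf1r had 0.43 and 0.57 and Cd68 -0.10 and -0.38, and their part in the result was not tested.

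The 4 Id genes, which encode helix-loop-helix proteins that block differentiation factors, did not move as a block. Id1 had density values of -0.82 in WT and -0.87 in KO, under the 2-fold rule, and Id3 had values of -0.31 and -0.10. Id2 went from 12.94 in both channels to 12.63 and 12.34 in WT, and from 11.70 and 11.84 to 13.03 and 12.80 in KO. It rose 2.21-fold in KO (1.14) with -0.46 in WT, and was 2.25-fold lower in KO at low density (-1.17, and -0.91 without scaling between arrays). The KO rise of Id2 was 0.96 without KO replicate 1 and 0.75 with median centring. Id4 went from 10.66 and 10.80 to 9.16 and 9.35 in WT, a 2.78-fold fall (-1.47), and stayed between 11.18 and 11.44 in KO (-0.13). At high density Id4 was 4.12-fold higher in KO (2.04), and its dimmer probe gave 2.06.

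**Figure D3:**
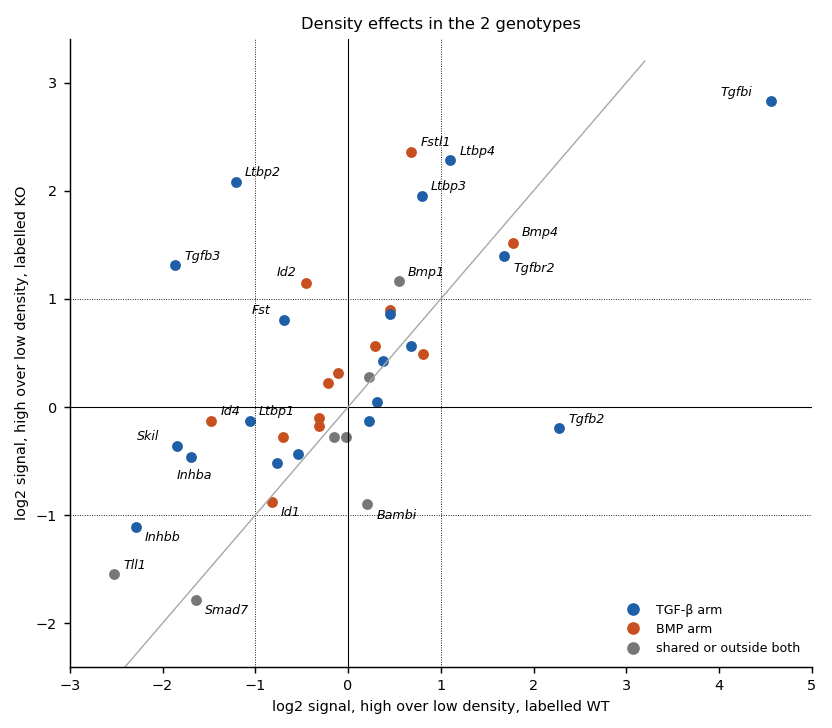
Density effect in cells labelled KO (vertical) against that in cells labelled WT (horizontal), as log2 high over low density, for the 39 members measured in both, coloured by arm. Dotted lines mark 2-fold and the grey line equal effects. Tgfb3 and Ltbp2 lie in the upper left, and Tgfb2 lies far right at a KO value of -0.20.

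The calls were also counted by arm. With density in WT, 4 of 19 measured TGF-β arm genes were higher and 6 lower, against 1 and 1 of 13 BMP arm genes, beside 9.43% and 6.12% of all genes. In KO the counts were 6 higher and 1 lower of 19 in the TGF-β arm, and 4 higher and 0 lower of 15 in the BMP arm, beside 7.18% and 3.90% of all genes. The median density value was 0.22 in WT and 0.42 in KO for the TGF-β arm, and -0.22 and 0.42 for the BMP arm, beside 0.06 in both genotypes over all genes. The WT median of the TGF-β arm turned to -0.16 when probes had to be above background at both densities, and was 0.066 without WT replicate 1. The KO medians fell to 0.15 and 0.17 with median centring, and that of the BMP arm was 0.18 without KO replicate 1 and 0.60 without KO replicate 2. The arms were not tested against each other.

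Between genotypes, 3 of 41 measured members were higher in KO at low density and 7 lower, against 7.35% and 8.40% of all measured genes. Without scaling between arrays these counts were 5 higher and 4 lower, and 5 or 6 were higher with no offset or processed signal. At high density 11 were higher and 5 lower, against 6.78% and 7.83%. Bmp4 and Grem1 were higher in KO at both densities, Tgfbi, Eng and Gdf15 were lower at both, and no member was called in opposite directions. The TGF-β arm had 0 higher and 4 lower of 19 at low density (Inhbb, Ltbp3, Fst and Tgfbi), and 5 higher and 3 lower at high density. Ltbp3 lay close to the limit at low density (-1.07), with -0.97 under median centring, -0.92 with the mean of its probes and -0.80 without scaling. The BMP arm had 2 higher and 1 lower of 15 at low density, then 6 higher and 0 lower at high density (Bmp4, Bmp6, Grem1, Chrdl1, Fstl1 and Id4). Of those 6, Grem1, Chrdl1 and Fstl1 are secreted antagonists. Bmp6 and Chrdl1 were well above background in KO channels alone, so that they could be called higher but not lower.

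**Figure D4:**
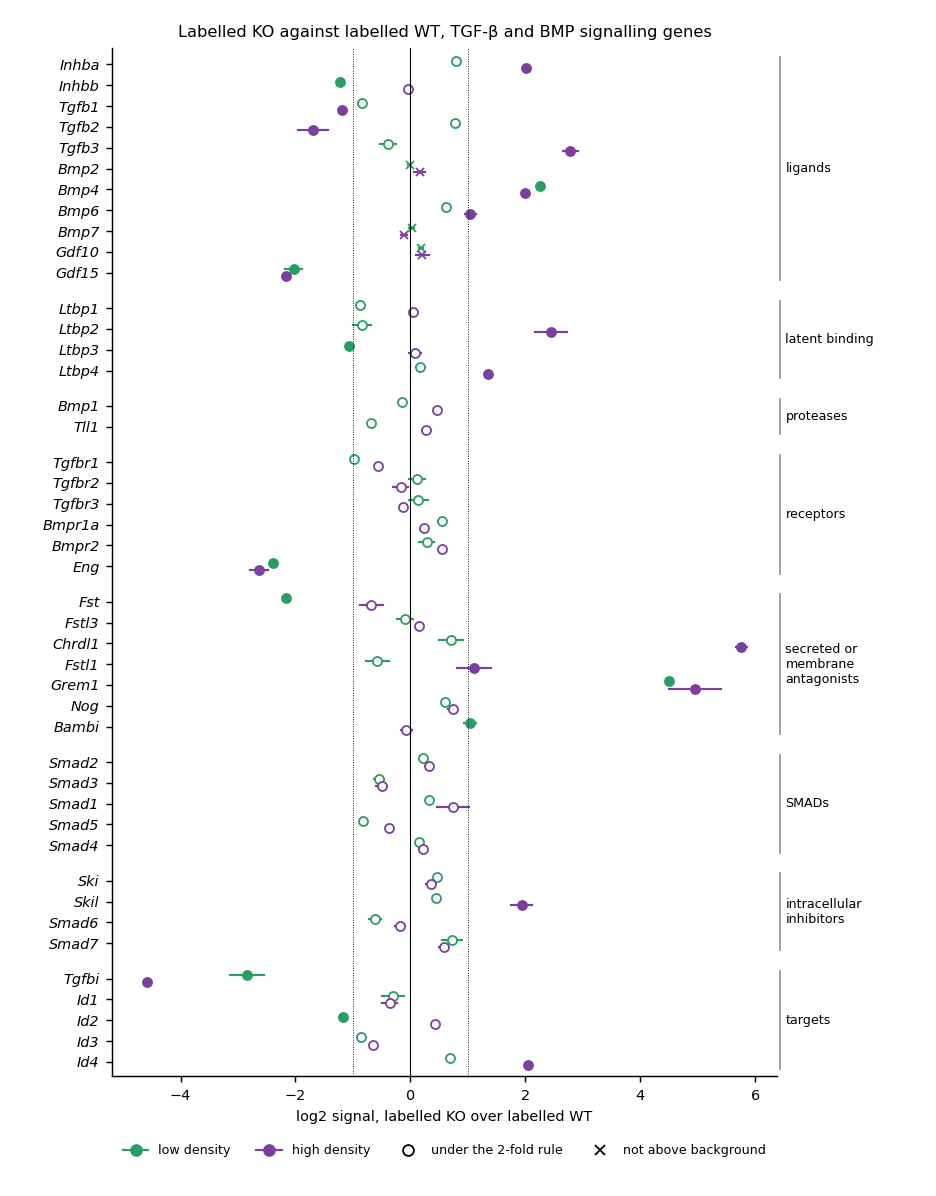
Log2 signal in cells labelled KO over WT for all 44 members at low (green) and high (purple) density, ordered by role. Points are means of 2 dyes and bars join the dyes, filled points pass the 2-fold rule and crosses were not above background. Grem1 stands to the right at both densities and Tgfbi, Eng and Gdf15 to the left, while Chrdl1, Tgfb3 and Ltbp2 separate at high density.

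A wider list of 89 other TGF-β and BMP pathway genes, written from general knowledge, was read the same way, and 88 were on the array. With density 9 of 62 measured genes were higher and 12 lower in WT, against 9.43% and 6.12% of all genes, and 6 and 8 of 62 in KO, against 7.18% and 3.90%. Of 10 further TGF-β targets, 1 was higher and 6 lower in WT, and 0 were higher and 4 lower in KO, whereas Tgfbi was higher in both. Of 9 measured further BMP targets, 2 were higher and 3 lower in WT, and 0 were higher and 3 lower in KO (Msx2, Hey1 and Dlx2). Of the 4 Id genes, the BMP targets of the set, 0 were higher and 1 lower in WT. In KO 1 Id gene was higher and 0 lower, with a median of -0.11. The density values of the 10 further TGF-β targets ran from -4.28 to 1.85 in WT and from -4.15 to 0.32 in KO. Of them 8 were below 0 in WT and 9 in KO. Among 7 measured genes that release or hold latent TGF-β, 0 were higher and 2 lower in WT (Thbs1 and Itgav), and 2 were higher (Fbn1 and Fbn2) and 1 lower (Thbs1) in KO. Thbs1 (thrombospondin 1) had -3.45 in WT and -1.63 in KO, while Fbn2 (fibrillin 2) rose by 3.14 in KO and was 5.52 higher in KO at high density.

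The smooth muscle genes Acta2, Tagln and Cnn1, which TGF-β induces in contractile fibroblasts, moved with density in WT beside these results. The summed signal (linear scale) of 4 smooth muscle markers was 423604 and 325761 at low and 92655 and 62696 at high density in WT, against 239665 and 227417, then 180424 and 178313 in KO. In all 8 channels 3 of these markers were well above background. The sum is carried by the brighter genes, and Cnn1 alone was far lower in KO (-5.47 at low and -3.11 at high density). At high density 2 of the 4 were higher in KO, by up to 1.75. For the 3 measured in both genotypes, the density effects were 1.37 to 2.41 larger in KO. The cartilage markers summed to 8093 and 7594 at low and 7028 and 6839 at high density in WT, and to 1911 and 1529, then 8649 and 5987 in KO, where Col2a1 had a density value of 2.86. Against the fall of the sum in WT, 1 of these 3 markers was higher with density there (1.47) and 0 were lower. At low density 1 was lower in KO (-3.23) and 0 were higher. The epithelial markers summed to 1460 and 1615, then 521.9 and 573.2 in WT, and to 525.6 and 616.4, then 307.5 and 338.5 in KO, with Cdh1, Epcam and Krt8 above background in no channel. Their part in the results was not tested.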

How the data were processed

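Labels gave genotype, density and dye of each channel. Per the file headers, the authors extracted the 4 arrays with Agilent Feature Extraction 10.5.1.1. The deposited scanner files hold raw mean spot intensity, median background intensity, processed signal intensity, flags and the software's log10 ratio of Cy5 to Cy3. The deposited series matrix was checked and holds that log10 ratio, rounded, with swapped arrays turned.

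Raw intensity was corrected by normexp (offset 50) and normalised by loess in limma 3.58.1 (R 4.3.3, the package data.table, 1.17.8), and channels were scaled by Aquantile for genotype contrasts, which compared arrays within a dye. The offset shrinks ratios of dim probes. Control and flagged features were left out (107 to 224 flagged per array), spots of a probe were averaged, and a gene was read from its brightest of 41174 probes. Each channel had 52.8% to 67.7% of its features well above background, and 0 were saturated. A gene was measured in a contrast when it was well above background on both arrays on at least 1 side. For a dim side, "at least" folds raised a channel to the lowest signal well above background in it where the probe read below that. Of 27484 gene names, 19678 were found in RefSeq. Python 3.11.15, numpy 2.4.6 and pandas 2.3.3 were used for counts.

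The rule for named genes was all 44 members, pathway genes past 2-fold and the markers. Members and lists were chosen with earlier results of these data known. The methods' t-test was not run, since dye swaps give 1 replicate per genotype and density. The size rule was tested on simulated data. Alternatives were median centring, no offset, processed signal, mean of measured probes, both sides above background, 1.4-fold, each array left out, the series matrix and no scaling between arrays.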

Additional observations from a re-analysis of the deposited data

Results flagged for a closer look

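For 6 members both arrays labelled WT moved one way with density and both arrays labelled KO the other way, with at least a 2-fold gap. The gap, as the density effect in KO minus that in WT on the log2 scale, was 3.18 for Tgfb3, 3.29 for Ltbp2, 1.60 for Id2 and 1.49 for Fst, which were higher with density in KO. It was -2.47 for Tgfb2 and -1.11 for Bambi, which were lower. With 1 replicate per genotype and density, none of these differences was tested. For Tgfb2 the KO effect was small (-0.03 and -0.36 on the 2 arrays).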

How the results depend on the processing

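Of 68 called member values, 49 stayed past 2-fold in every alternative and 0 reversed. The others that lost the rule somewhere kept their direction, most often Ltbp3 and Inhbb. Counts and medians kept their value within the limit in 191 of 240 alternatives, and the cause of the other changes was not tested. With density in WT, the 1.4-fold threshold gave 10 higher and 14 lower. Median centring gave medians of -0.29 for members and -0.34 for the BMP arm, both sides above background gave -0.16 for the TGF-β arm, and leaving out a WT array gave 0.066 to 0.25 for it. With density in KO, 1.4-fold gave 17 higher and 6 lower. Median centring gave 5 lower and medians of -0.070 (members, reversed), 0.15 (TGF-β) and 0.17 (BMP), processed signal 0.59 (BMP), and the mean of probes 0.26 (TGF-β) and 0.22 (BMP). Leaving out an array gave 0.053 to 0.45 for members and 0.18 to 0.60 for the BMP arm. For the KO minus WT difference, members had medians of 0.15 with median centring and 0.40 with no offset or processed signal. The BMP arm had 0.15 with median centring, 0.26 with the mean of probes and 0.22 to 0.33 without an array, and the TGF-β arm 0.66 with processed signal, 0.67 with both sides above background and 0.63 in the series matrix. For genotype at low density, higher members numbered 5 with no offset, 6 with processed signal and 11 at 1.4-fold, where 17 were lower. Members had a median of -0.22 with both sides above background, and the TGF-β arm -0.21 with median centring and -0.53 to -0.25 without an array. No scaling between arrays gave 5 higher, 4 lower and medians of 0.14 (members), -0.12 (TGF-β) and 0.58 (BMP). At high density 9 were lower at 1.4-fold, the BMP median was 0.49 with both sides above background, and no scaling gave medians of 0.50, 0.32 and 0.93. No scaling moved the median of all genes from 0.03 to 0.27 at low and from 0.02 to 0.26 at high density, and median centring moved it from 0.06 to -0.05 (WT) and -0.08 (KO). No paired analysis was possible because each genotype and density had 1 replicate and no test. Dim members such as Bmp2, Bmp7 and Gdf10 had too little signal over background to be compared.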
